A study of Mus musculus with 6 samples.

Results

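The genes described here are 10 markers of tissue macrophages, Csf1r, C1qa, C1qb, C1qc, Mrc1, Cx3cr1, Aif1, Spi1, Tyrobp and Fcer1g, read out in RNA from whole embryonic mouse pancreas. They were taken by name from a table of 23337 gene symbols. Of the 10, 9 were found under the listed symbol and 1, Spi1, under its older symbol Sfpi1. All 10 passed the filter on low counts, which left 14687 genes tested. Pancreata of NMRI embryos at E13.5 were frozen and pooled by genotype, 5 to 6 per pool, with 3 control pools of wildtype embryos and 3 mutant pools labelled Prox1-nullyzygous, written Prox1 GFPCre/D. One library was sequenced per pool. Prox1 encodes a homeodomain transcription factor, and the comparison asked how the organ's RNA differed when it was lost. What each mutant allele removes is not stated in the labels used here. Pools are mixtures of embryos, so differences between single embryos were averaged before sequencing.

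Tissue macrophages are phagocytes that settle in organs during embryonic life. They depend on signalling through the receptor CSF1R and on the transcription factor PU.1, which Spi1 encodes. In developing organs they clear dying cells and live beside vessels and growing epithelium. They are the chief source of complement component C1q, and they carry receptors that signal through small adaptor proteins. The samples were whole organs, so markers of macrophages were read against a background of epithelium, mesenchyme, vessels and blood cells, and fewer cells of a type and less RNA per cell cannot be told apart.

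Each library held between 16060424 and 17633867 counted reads. Values are given as CPM (reads relative to the library total after TMM scaling, which corrects for RNA composition), and 1 CPM stood for 15.9 to 17.5 reads. Prox1 stood at 105, 103 and 107 CPM in control pools 1 to 3 and at 83.6, 104 and 91.6 CPM in mutant pools 1 to 3, with an adjusted p of 0.235 by edgeR, so these counts gave no check of the genotypes. The pancreatic genes Pdx1 and Cpa1 were present in every pool, Pdx1 at 33.6 to 51.4 CPM. Xist, the RNA of the inactive X chromosome, was almost absent from control pool 3 and mutant pool 1, at 0.526 and 0.126 CPM, while the remaining pools held 2010 to 2810 CPM. Ddx3y, a gene of the Y chromosome, reached 111 and 127 CPM in those pools and 23.1 to 45.7 CPM elsewhere.

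None of the macrophage markers was called between control and mutant pancreas, and their summed level differed by less than the spread between pools. Summed over the 10 genes, the level was 319, 278 and 271 CPM in the control pools and 316, 286 and 272 CPM in the mutant pools. The ranges of the groups nearly coincided, and the means were 289 ± 25.7 CPM in controls against 291 ± 22.6 CPM in mutants (SD, n = 3 each). Mrc1 and Csf1r, at 107 and 60.5 CPM in controls, weigh most in this sum. It therefore says little about the scarce members Tyrobp, Fcer1g, Spi1 and Aif1, at 3.68 to 8.99 CPM in controls. Of the 10 members, 0 passed the test in either direction by the quasi-likelihood F test of edgeR with Benjamini-Hochberg adjustment over all genes tested, at an adjusted p under 0.05. DESeq2 and limma voom also called 0 of the 10. At an unadjusted p under 0.05 there was 1 member of 10, Tyrobp, with each of the 3 tools, against 21.1% of all genes tested with edgeR. Over all genes tested, 7.95% were called, 3.67% higher and 4.28% lower in mutants. The median log2 fold change, mutant minus control, was 0.07 over the members and 0.0005 over all genes tested. In 2 of the 10 members, Aif1 and Tyrobp, the pools of the groups did not overlap, while 26.4% of all genes tested had no overlap.

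**Figure D1:**
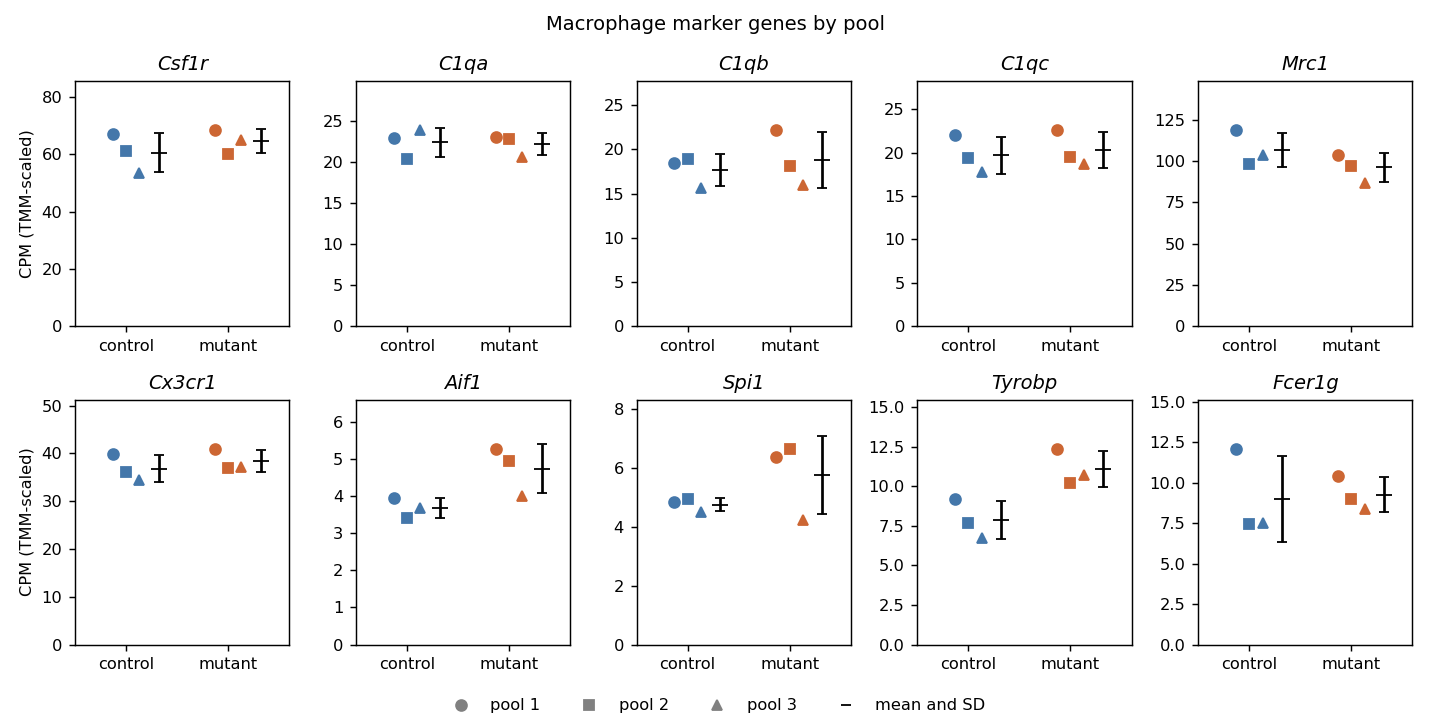
CPM of each macrophage marker gene (vertical axes, TMM-scaled, starting at 0) in the control pools (blue) and mutant pools (orange), with 1 symbol per pool and the mean with its SD in black. The groups overlap in 8 of the 10 genes, and Aif1 and Tyrobp stand above all controls in every mutant pool.

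Csf1r encodes the receptor for colony-stimulating factor 1 and interleukin 34, the survival signals of macrophages (chromosome 18, 61100598 to 61132149, plus strand, GRCm38). It stood at 67, 61.1 and 53.4 CPM in control pools 1 to 3 and at 68.5, 60.2 and 65.1 CPM in mutant pools 1 to 3. Both groups spanned about the same levels, with control pool 3 the lowest of all. The log2 fold change was 0.09 (SE 0.0856, 95% interval -0.10 to 0.29, adjusted p = 0.608 by edgeR). On the linear scale the interval ran from 0.934 to 1.22 times the control level. Csf1r shares 873 bases of exon with Hmgxb3 on the opposite strand. The labels do not say whether counting used strand, so reads in these bases may be mixed or left uncounted. Hmgxb3 itself stood at 66.5 ± 4.16 CPM in controls against 67 ± 3.59 CPM in mutants (SD, n = 3 each).

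The ligands of this receptor were also measured. Csf1, encoding colony-stimulating factor 1, stood at 33.8, 39.3 and 31.9 CPM in the control pools and 37.3, 32 and 36.7 CPM in the mutant pools, with overlapping groups and a log2 fold change of 0.02 (95% interval -0.20 to 0.23). Il34, encoding the other ligand, was scarce, at 0.695 ± 0.0775 CPM in controls against 0.956 ± 0.222 CPM in mutants (SD, n = 3 each), and was not called (edgeR adjusted p = 0.47). Csf2, encoding a growth factor of granulocytes and macrophages, held no read in 5 of the 6 pools.

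Spi1 encodes PU.1, the transcription factor that commits blood progenitors to myeloid fates (chromosome 2, 91082390 to 91115756, plus strand). It stood at 4.83, 4.93 and 4.5 CPM in the control pools and at 6.35, 6.65 and 4.23 CPM in the mutant pools. Mutant pools 1 and 2 lay above all controls and mutant pool 3 below them. Its log2 fold change of 0.27 (SE 0.188, 95% interval -0.15 to 0.70) was not called (edgeR adjusted p = 0.482). Counts were low, at 74 to 113 reads per library, so counting error alone gave a coefficient of variation of about 11.2% in controls and 10.2% in mutants.

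The 3 chains of C1q, which together form the recognition molecule of the classical complement pathway, are encoded by neighbouring genes on the minus strand of chromosome 4. C1qb lies at 136880129 to 136886187, C1qc at 136889804 to 136893065 and C1qa at 136895917 to 136898803, with 3616 and 2851 bases between them. C1qa stood at 22.9, 20.4 and 23.9 CPM in controls and 23.1, 22.8 and 20.6 CPM in mutants, a log2 fold change of -0.01 (95% interval -0.21 to 0.18). C1qb stood at 18.5, 18.9 and 15.6 CPM in controls and 22.2, 18.1 and 16 CPM in mutants, a log2 fold change of 0.09 (95% interval -0.21 to 0.39). C1qc stood at 22, 19.4 and 17.8 CPM in controls and 22.6, 19.5 and 18.7 CPM in mutants, a log2 fold change of 0.04 (95% interval -0.20 to 0.28). The groups overlapped for each chain, and the adjusted p of edgeR was 0.955 for C1qa, 0.789 for C1qb and 0.895 for C1qc.

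Proportions of the chains overlapped between the groups. The ratio of C1qc to C1qb in CPM was 1.19, 1.03 and 1.14 in control pools 1 to 3, and 1.02, 1.07 and 1.17 in mutant pools 1 to 3. The ratio of C1qa to C1qb spread more widely, from 1.08 to 1.53 in controls and from 1.04 to 1.29 in mutants, with control pool 3 the highest.

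Promoter windows of 6 of the 10 members, the 250 bases before the start site in the RefSeq annotation of GRCm38.p6, were searched for GAGGAA, the core letters that PU.1 binds, on both strands, and for the longer GAGGAAGT, which contains it. GAGGAA was found in 4 of the 6 windows, those of C1qb, C1qc, Mrc1 and Aif1, and in 23.3% of the 32851 windows of the same length. GAGGAAGT was found in 1 of the 6, that of C1qc, and in 2.44% of all windows. The windows of Cx3cr1 and Fcer1g held neither. The windows of C1qb and C1qc are shown because these neighbouring genes encode chains of 1 protein and both hold a match. The start sites of RefSeq and the gene ends of GENCODE differ, so that 151 of the 250 bases searched for C1qc, all 250 for Cx3cr1, 22 for Mrc1, 16 for Aif1 and 16 for Fcer1g lie inside the GENCODE gene. For C1qc the 99 bases before the GENCODE gene are printed, and distances are from the RefSeq start site. Each is written 5′ to 3′ on the minus strand, with the GAGGAA match or its reverse complement TTCCTC in capitals, and such a match describes the letters only.
C1qb, chr4:136886201-136886450, match starting 30 bases before the start site: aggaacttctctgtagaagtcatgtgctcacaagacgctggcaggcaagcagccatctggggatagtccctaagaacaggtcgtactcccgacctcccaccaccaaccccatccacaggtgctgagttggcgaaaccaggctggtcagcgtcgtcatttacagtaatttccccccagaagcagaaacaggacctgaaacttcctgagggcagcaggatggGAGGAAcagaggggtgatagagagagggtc
C1qc, chr4:136893066-136893164, match starting 193 bases before the start site: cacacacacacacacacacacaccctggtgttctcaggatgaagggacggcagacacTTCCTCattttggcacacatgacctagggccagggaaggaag

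Other complement genes were counted in the same way. Of 34 complement genes found, 23 were tested, 1 was called higher, 0 lower and 22 were not called. Over all genes tested, 7.95% were called. The median log2 fold change of the complement genes was 0.09. The called gene, Masp1, encodes a protease of the lectin pathway and stood at 1.51 ± 0.297 CPM in controls against 2.89 ± 0.522 CPM in mutants (SD, n = 3 each) (log2 fold change 0.93, edgeR adjusted p = 0.0471). It did not hold when control pool 1 (adjusted p = 0.133), 2 (0.103) or 3 (0.0608) or mutant pool 1 (0.139) or 2 (0.16) was left out, nor with DESeq2 (0.086) or limma voom (0.056). Cfi, encoding complement factor I, stood at 19, 14.6 and 26.1 CPM in controls and 13.8, 10.1 and 14.4 CPM in mutants, with no overlap and a log2 fold change of -0.64 (edgeR adjusted p = 0.112). It was called lower with DESeq2 (adjusted p = 0.0164) and, with edgeR, without control pool 2 (0.0221). The protease genes C1ra and C1s, whose products join C1q in the first complement complex, were scarce at 0.913 to 3.2 CPM and were not called. Serping1, encoding the inhibitor of those proteases, stood at 48.6 to 55.7 CPM over the 6 pools. C3ar1, encoding the receptor for a fragment of C3 that myeloid cells carry, stood at 5.96 to 9.36 CPM.

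Mrc1 encodes the mannose receptor, an endocytic lectin of tissue macrophages that lymphatic and sinusoidal endothelium also make (chromosome 2, 14229392 to 14332057, plus strand). It had the most reads of the 10 members. It stood at 119, 98.4 and 104 CPM in the control pools and at 104, 97.4 and 87.1 CPM in the mutant pools. The groups overlapped, with control pool 1 the highest and mutant pool 3 the lowest. The log2 fold change of -0.15 (SE 0.0834, 95% interval -0.34 to 0.04) was the lowest of the members and was not called (edgeR adjusted p = 0.355). Relative to Csf1r in the same pool, Mrc1 stood at 1.77, 1.61 and 1.95 in controls and at 1.52, 1.62 and 1.34 in mutants, and these ranges overlapped through control pool 2 and mutant pool 2. Of 19 tested endothelial and lymphatic markers, 18 had a positive log2 fold change and 1 a negative one. The negative one, Lyve1, a hyaluronan receptor gene of lymphatic endothelium and some macrophages, had -0.50, which missed the threshold with edgeR (adjusted p = 0.0991) and passed it with DESeq2 (0.0226) and, with edgeR, without control pool 2 (0.0111). Pdpn, also used as a lymphatic marker, was called higher by 0.45 (edgeR adjusted p = 0.0182). The Pdpn call did not hold when control pool 1 (edgeR adjusted p = 0.0644) or 3 (0.0573) or mutant pool 1 (0.0612) or 2 (0.0767) was left out. Stab1, a scavenger receptor gene of macrophages and sinusoidal endothelium, had -0.19 (edgeR adjusted p = 0.117, and 0.0196 without control pool 3).

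Cx3cr1 encodes the receptor for the tethered chemokine fractalkine and marks microglia and many embryonic macrophages (chromosome 9, 119901616 to 120069879, minus strand). It stood at 39.9, 36 and 34.5 CPM in the control pools and at 41, 37 and 37.2 CPM in the mutant pools. The groups overlapped, and the log2 fold change was 0.06 (SE 0.0739, 95% interval -0.11 to 0.23, edgeR adjusted p = 0.719). This was the narrowest interval of the 10, from 0.929 to 1.17 times the control level. Cx3cl1, encoding fractalkine itself, stood at 11 ± 0.977 CPM in controls against 10.8 ± 0.783 CPM in mutants (SD, n = 3 each), a log2 fold change of -0.03 (95% interval -0.28 to 0.23).

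Aif1 encodes IBA1, an actin-bundling protein widely used to stain macrophages and microglia (chromosome 17, 35170991 to 35176068, minus strand). It stood at 3.94, 3.41 and 3.68 CPM in the control pools and at 5.28, 4.95 and 4 CPM in the mutant pools. Every mutant pool lay above every control pool, mutant pool 3 by a small margin over control pool 1. The log2 fold change of 0.37 (SE 0.166, 95% interval -0.01 to 0.74) was not called (edgeR adjusted p = 0.25). Aif1 held only 56 to 84 reads per library, and counting error alone gave a coefficient of variation of 12.7% in controls, above the 7.2% observed there.

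Tyrobp and Fcer1g encode DAP12 and the Fc receptor gamma chain, small membrane adaptors whose activation motifs recruit the kinase SYK below many myeloid receptors. Neutrophils and natural killer cells use both adaptors, and mast cells use the gamma chain. Tyrobp (chromosome 7, 30413760 to 30417585, plus strand) stood at 9.19, 7.67 and 6.77 CPM in the control pools and at 12.4, 10.2 and 10.7 CPM in the mutant pools, from 116 to 197 reads per library. All mutant pools lay above all controls. Its log2 fold change of 0.49 (SE 0.14, 95% interval 0.18 to 0.81) was the highest of the members, with an unadjusted p of 0.00661 and an adjusted p of 0.069 by edgeR, so it missed the threshold. The adjusted p was 0.0678 with DESeq2 and 0.065 with limma voom. Relative to Csf1r in the same pool, Tyrobp stood at 0.137, 0.125 and 0.127 in controls and 0.181, 0.17 and 0.164 in mutants, a comparison chosen after the values were seen.

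Fcer1g (chromosome 1, 171229572 to 171234365, minus strand) stood at 12.1, 7.43 and 7.48 CPM in the control pools and at 10.4, 9.01 and 8.35 CPM in the mutant pools. Control pool 1 was the highest pool of all, while the other controls lay below every mutant pool. The log2 fold change was 0.04 (SE 0.197, 95% interval -0.40 to 0.49, edgeR adjusted p = 0.941), and with control pool 1 left out it was 0.31. Among markers of other cells that carry this adaptor, the mast cell protease gene Cpa3 reached 27.4 CPM in control pool 1, while the other pools held 12.6 to 14.2 CPM. The neutrophil granule gene Ngp stood at 14, 0.122 and 0.467 CPM in control pools 1 to 3 and at 18, 11.7 and 5.72 CPM in mutant pools 1 to 3, so that mutant pool 1, unlike for Fcer1g, was the highest. Mpo, a gene of earlier granulocyte precursors, was level across the controls, at 2.15, 2.25 and 2.45 CPM. Over all 16 tested neutrophil and precursor markers, control pool 1 was the highest control for 11, and over 8 mast cell and basophil markers for 6. This was not particular to them. Control pool 1 was also highest for 19 of 24 leukocyte genes and 15 of 19 endothelial genes, against 27.7% of all genes tested. The part of neutrophils and mast cells in the Fcer1g and Tyrobp values was not tested.

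**Figure D2:**
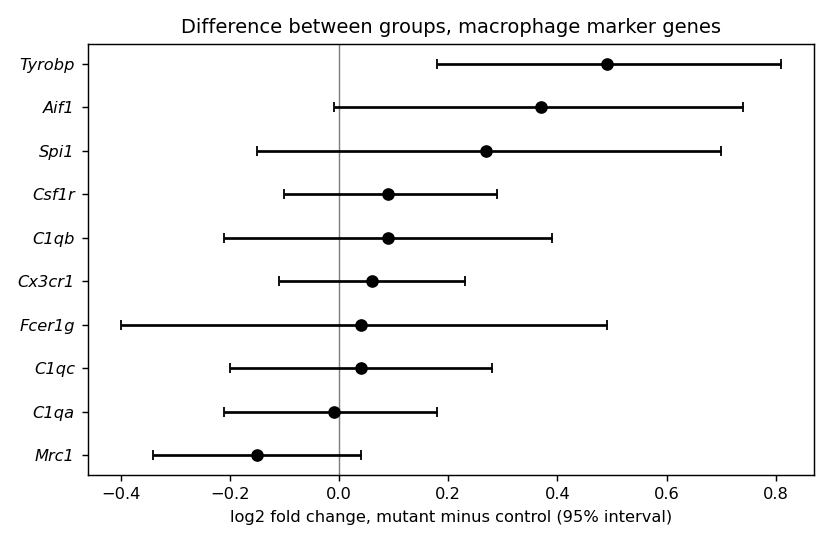
Log2 fold change, mutant minus control, of each macrophage marker gene (horizontal axis) with its 95% interval from edgeR, ordered by size. The intervals of 9 genes include 0, and that of Tyrobp runs from 0.18 to 0.81, although its adjusted p was 0.069.

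Of 19 genes found that act with these adaptors, 16 were tested and 0 were called by edgeR, DESeq2 or limma voom. With edgeR, 7.95% of all genes tested were called. A positive log2 fold change was seen in 11 of the 16, and the median was 0.27. An unadjusted p under 0.05 by edgeR was found for 3, against 21.1% of all genes tested. Syk, encoding the kinase that docks on the adaptors, stood at 17.3, 14.7 and 15.9 CPM in controls and 23.6, 18.2 and 19.2 CPM in mutants, with no overlap and an adjusted p of 0.117 by edgeR. The 2 most abundant genes of the list, Grb2 and Lyn, which encode a widely expressed adaptor and a Src-family kinase, each had a log2 fold change of -0.01.

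Divided by exon length, the members fell into an order that compares levels between genes. Exon length counted every base in any annotated transcript of a gene, and which transcripts were present was not measured. The order therefore depends on the annotation. In controls the highest was C1qa at 21.5 ± 1.73 CPM per kb of exon (SD, n = 3), followed by Mrc1 at 16.8 ± 1.63 and C1qb at 16.2 ± 1.67. Tyrobp at 11.8 ± 1.83, Csf1r at 10.5 ± 1.18, Fcer1g at 10.3 ± 3.04 and C1qc at 10.2 ± 1.1 CPM per kb came next. Cx3cr1 at 8.17 ± 0.616, Aif1 at 2.4 ± 0.173 and Spi1 at 1.76 ± 0.0844 CPM per kb came last. Control pools of Mrc1 and C1qb overlapped, as did those of each neighbouring pair from Tyrobp to C1qc, so these neighbours did not differ beyond their spread. In mutants Tyrobp stood at 16.6 ± 1.69 CPM per kb, overlapping C1qb at 17.3 ± 2.91 and no longer overlapping Csf1r at 11.2 ± 0.72. Over all pools, C1qa was above 81.6% of the 13314 tested genes that had a length, and Spi1 above 24.1%.

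The members varied together from pool to pool. All 10 stood above their group mean in control pool 1, and all 10 did so in mutant pool 1. In the remaining pools 3 of 10 were above the group mean in control pool 2, 2 in control pool 3, 4 in mutant pool 2 and 1 in mutant pool 3. Control pool 1 was the highest control for 7 of the 10 members, against 27.7% of all genes tested, and mutant pool 1 the highest mutant for 9, against 37.1%. Endothelial and general leukocyte genes were mostly highest in the same pools. Control pool 1 was highest for 15 of 19 tested endothelial genes and 19 of 24 leukocyte genes, and mutant pool 1 for 19 and 21 of them. Of 12 markers of pancreatic epithelium, endocrine cells and mesenchyme, control pool 1 was highest for 0 and mutant pool 1 for 1. What set these pools apart was not tested, and they differ in Xist, which was high in control pool 1 and almost absent from mutant pool 1.

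**Figure D3:**
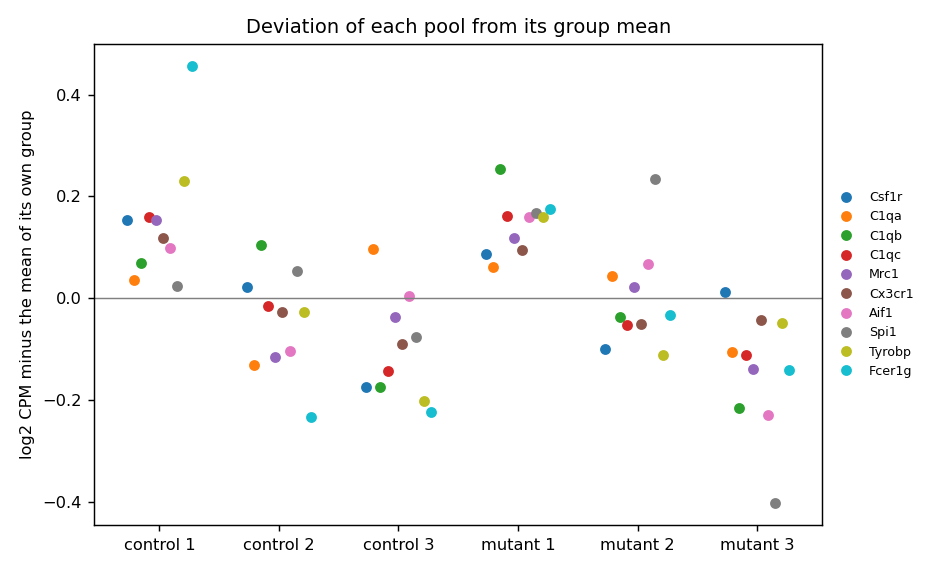
Log2 CPM of each macrophage marker gene in each pool, minus the mean of that gene over the pools of the same group (vertical axis), with 1 colour per gene. All 10 genes lie above 0 in control pool 1 and in mutant pool 1, and Fcer1g in control pool 1 and Spi1 in mutant pool 3 lie farthest from 0.

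Among 13819 genes outside the lists, those whose log2 CPM over the 6 libraries followed the mean of the members most closely were Fgf10, Evi2b, Tlr6, Rbm45, Srgn, Serinc3, Galnt13 and Tmem170b, with Pearson correlations from 0.972 to 0.989. These correlations rest on 6 libraries and were picked as the highest of many, so they are a description only. Evi2b, a leukocyte membrane protein gene, stood at 2.92, 1.95 and 1.58 CPM in controls and 4.21, 3 and 2.29 CPM in mutants. Srgn, encoding the proteoglycan serglycin of blood cell granules, stood at 5.31, 3.53 and 3.27 CPM in controls and 7.54, 5.12 and 4.4 CPM in mutants. Fgf10, a mesenchymal growth factor gene, and Tlr6, a toll-like receptor gene, were likewise highest in pool 1 of each group. None of the 8 was called by edgeR, with adjusted p from 0.296 to 0.808.

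Of 36 other macrophage genes found, 32 were tested, 2 were called higher, 1 lower and 29 were not called. Positive log2 fold changes were seen in 23 of the 32 and negative ones in 9, with a median of 0.13. Over all genes tested, 7.95% were called, 3.67% higher and 4.28% lower, and calls in the lists below are to be read beside that share. At an unadjusted p under 0.05 there were 13 of the 32, against 21.1% of all genes tested. In 11 of the 32 the groups did not overlap, against 26.4% of all genes tested. Genes with positive values that were not called included Lyz2, the lysozyme gene of myeloid cells, at 0.72 (edgeR adjusted p = 0.129, and 0.0393 without control pool 1), and Clec7a, encoding the receptor dectin-1, at 0.90 (0.103). Ctss, encoding the protease cathepsin S, had 0.36 (edgeR adjusted p = 0.0916) and Fcgr1, encoding a receptor for immunoglobulin G, 0.40 (0.153). Sirpa went the other way, at -0.16 (edgeR adjusted p = 0.106), with every mutant pool below every control pool. Adgre1, encoding F4/80, the classical mouse macrophage antigen, stood at 12.4 ± 0.214 CPM in controls against 12.9 ± 0.998 CPM in mutants (SD, n = 3 each), with overlapping pools. Cd68, encoding a lysosomal membrane protein of macrophages, had a log2 fold change of -0.02 (95% interval -0.41 to 0.37).

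Mpeg1, encoding the pore-forming protein perforin-2 of phagocytes, was called higher. It stood at 13.3, 9.8 and 8.64 CPM in the control pools and at 30.1, 18.1 and 15.4 CPM in the mutant pools, with a log2 fold change of 1.00 ± 0.254 (SE) and an edgeR adjusted p of 0.0461. For Mpeg1 this did not hold when control pool 1 (edgeR adjusted p = 0.0604), 2 (0.0852) or 3 (0.133) or mutant pool 1 (0.0788) or 2 (0.0776) was left out, nor with robust estimation (0.107) or limma voom (0.0681). Without mutant pool 1 its log2 fold change was 0.66. Axl, encoding a receptor for apoptotic cells that mesenchyme also makes, rose from 178 ± 13.2 to 232 ± 5.16 CPM (SD, n = 3), a log2 fold change of 0.38 (edgeR adjusted p = 0.00402). Its relative Mertk, at 31.4 ± 2.07 and 30.4 ± 0.19 CPM (SD, n = 3), was not called, while their ligand gene Gas6 rose from 52.4 ± 1.84 to 72.2 ± 2.99 CPM (SD, n = 3), a log2 fold change of 0.46 (edgeR adjusted p = 0.00146). Sall1, a transcription factor gene of microglia and of other embryonic tissues, fell from 11.6 ± 1.33 to 3.91 ± 0.757 CPM (SD, n = 3), a log2 fold change of -1.57 (edgeR adjusted p = 0.000925). Of further genes used as microglia markers, P2ry12 and Siglech were scarce, at 0.515 to 3.46 CPM, while Tmem119, which mesenchyme also makes, stood at 29.8, 30.5 and 23.4 CPM in controls and 33.2, 35.7 and 30.8 CPM in mutants, with no overlap and an edgeR adjusted p of 0.209.

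Of 14 ligand and recruiting factor genes found, 7 were tested, 2 were called higher, 0 lower and 5 were not called, with a median of 0.24. The calls were Gas6 and the chemokine gene Cxcl12, which rose from 328 ± 7.76 to 506 ± 27.8 CPM (SD, n = 3). The monocyte-attracting chemokine genes Ccl2, Ccl7 and Ccl12 were at 1.01 CPM or below in every pool and were not tested.

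Transcription factor genes used in myeloid cells changed in both directions. Of 22 found, 20 were tested, 2 were called higher, 2 lower and 16 were not called, with a median of 0.19. Cebpa, a factor of granulocyte progenitors and of hepatocytes, fell from 14.6 ± 1.32 to 9.45 ± 1.11 CPM (SD, n = 3), a log2 fold change of -0.62 (edgeR adjusted p = 0.0151). Zeb2 and Id3, both widely expressed in mesenchyme, were called higher by 0.27 and 0.33, and Zeb2 missed the threshold when mutant pool 3 was left out (edgeR adjusted p = 0.0508). Id3 missed it when control pool 1 (edgeR adjusted p = 0.11) or 3 (0.112) or mutant pool 1 (0.0729) or 2 (0.0671) was left out. Irf8, a factor of monocytes and macrophages, and Maf had log2 fold changes of 0.18 and -0.04 and were not called.

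Genes shared by all leukocytes lay mostly above their control level without a call in edgeR. Of 24 tested, 22 had a positive log2 fold change, the median was 0.43 and 0 were called in either direction, while 15 had an unadjusted p under 0.05, against 21.1% of all genes tested. DESeq2 called 5 of them higher and limma voom 0, and edgeR called 2 higher without mutant pool 3 and 1 without control pool 1. Ptprc, encoding CD45, stood at 9.19, 5.42 and 6.89 CPM in controls and 13.1, 12.2 and 8.29 CPM in mutants, with a log2 fold change of 0.64 ± 0.222 (SE) and an adjusted p of 0.127 by edgeR and 0.0471 by DESeq2. Lcp1, encoding the actin bundler plastin, and Cyba, encoding a subunit of the phagocyte oxidase found in many cells, were the most abundant, with log2 fold changes of 0.44 and -0.21. The summed level of the list ran from 212 to 267 CPM in controls and from 262 to 333 CPM in mutants.

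Several markers of granulocyte precursors rose in mutants. Of 16 neutrophil and granulocyte precursor markers tested, 5 were called higher, 0 lower and 11 were not called, with a median of 1.92. Mpo, encoding myeloperoxidase, stood at 2.15, 2.25 and 2.45 CPM in controls and 43.5, 21.8 and 17.8 CPM in mutants, a log2 fold change of 3.59 (edgeR adjusted p = 0.000687). The serine protease genes Prtn3 and Elane rose by 2.01 and 3.31 on the log2 scale, and Ms4a3, a gene of granulocyte and monocyte progenitors, by 3.34. The fifth called gene, the protease gene Ctsg, was at 0.122 CPM or below in controls and at 1.03 to 3.64 CPM in mutants. Genes of later granules split the controls. S100a8 stood at 12.4, 0.426 and 2.04 CPM in control pools 1 to 3 and at 8.29 to 31.8 CPM in mutants, and Ltf at 13.7, 0.122 and 0.234 CPM and 4.92 to 15.8 CPM. With control pool 1 left out, 12 genes of the list were called higher. The summed list ran from 17.7 to 84.3 CPM in controls and from 79.5 to 203 CPM in mutants.

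Among monocyte and dendritic cell markers, 18 were found, 7 were tested, 2 were called higher, 0 lower and 5 were not called. Positive log2 fold changes were seen in 5 of the 7 and negative ones in 2, from -1.14 to 1.54, with a median of 0.88. Unadjusted p by edgeR was under 0.05 for 6 of them, against 21.1% of all genes tested. Plac8, a gene of monocytes and granulocyte progenitors, rose from 4.9 ± 0.477 to 11 ± 0.075 CPM (SD, n = 3), a log2 fold change of 1.17 (edgeR adjusted p = 0.000725). Spn, encoding the leukocyte sialoprotein CD43, was called higher by 1.54 (edgeR adjusted p = 0.043), a call that did not hold when control pool 1 (0.085), 2 (0.0887) or 3 (0.114) or mutant pool 1 (0.0958) or 3 (0.0698) was left out, nor with limma voom (0.0696). Ccr2, encoding the receptor that draws monocytes out of the blood, stood at 4.24, 1.83 and 2.75 CPM in controls and 6.91, 7.83 and 4.52 CPM in mutants, with no overlap and an adjusted p of 0.0588 by edgeR, 0.00528 by DESeq2, and by edgeR 0.0377 without control pool 1 and 0.0459 without mutant pool 3. The dendritic cell gene Xcr1 held no read in 5 pools, and the antigen presentation genes H2-Aa, H2-Ab1 and H2-Eb1 were at 0.817 CPM or below throughout.

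Platelet and megakaryocyte markers were called higher for 3 of 10 tested genes and lower for 0, with a median of 0.93. Ppbp, encoding a platelet chemokine, rose by 1.99 (edgeR adjusted p = 0.00481) and the platelet receptor gene Gp1ba by 2.38 (adjusted p = 0.00773), and Thbs1, which mesenchyme also makes, was called higher by 0.40, but not without control pool 1 (adjusted p = 0.0604). Without both control pool 3 and mutant pool 1, neither Thbs1 (edgeR adjusted p = 0.054) nor Gp1ba (0.0522) was called. Pf4, a gene of platelets and some embryonic macrophages, stood at 9.07 to 10.2 CPM in controls and 11.2 to 12.8 CPM in mutants, and missed the threshold. Of 8 tested mast cell and basophil markers, 0 were called by edgeR, DESeq2 or limma voom. An unadjusted p under 0.05 by edgeR was found for 2, against 21.1% of all genes tested. All 8 had a negative log2 fold change, with a median of -0.34. Kit and Cpa3, the most abundant of them, had log2 fold changes of -0.14 and -0.38. Lymphocyte markers were near absent, with 3 of 16 tested, and Cd3e was called higher at 0.365 to 2.26 CPM. Endothelial markers were called higher for 2 of 19 tested genes, Flt1 and Pdpn, and lower for 0, with a median of 0.18, and 0 were called higher without control pool 1, control pool 3 or mutant pool 1. Of the platelet markers, 5 were called without control pool 2 and 2 without control pool 1. The part that blood cells other than macrophages had in the values of Tyrobp, Aif1, Spi1 and Mpeg1 was not tested.

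**Figure D4:**
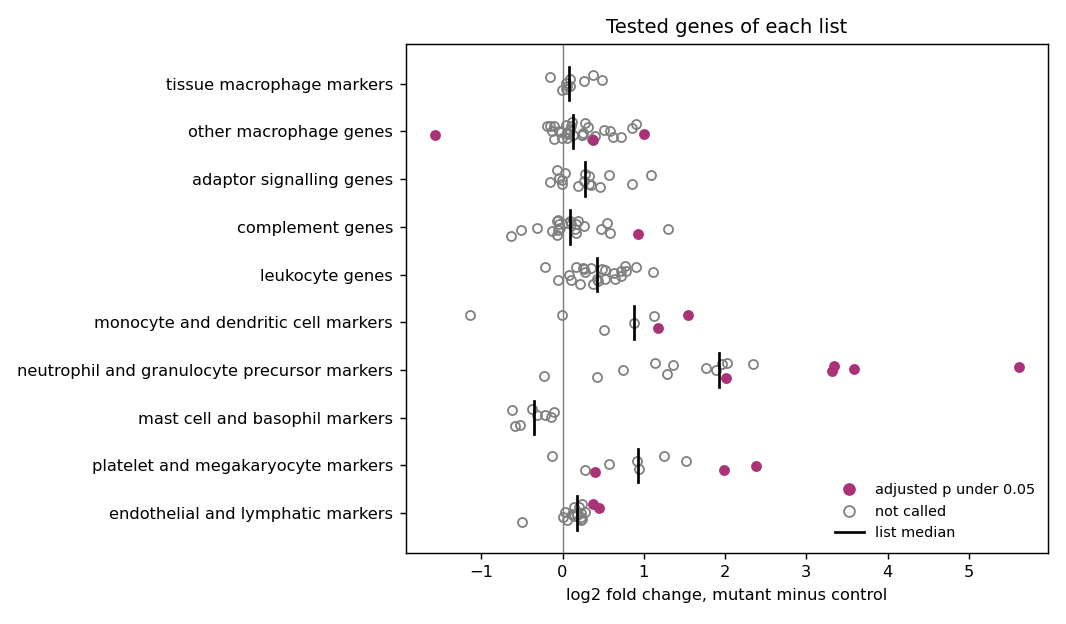
Log2 fold change, mutant minus control (horizontal axis), of every tested gene in 10 lists, 1 point per gene, filled where the edgeR adjusted p was under 0.05, with the list median as a black bar. The macrophage markers lie between -0.15 and 0.49 with 0 filled points, while 5 of 16 granulocyte precursor genes are filled, all above 0.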

How the data were processed

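Whole pancreas RNA was sequenced from 6 pools, 3 control and 3 mutant. The authors deposited whole-number read counts per gene symbol, not normalized, per the file headers and values. Per the submitters' processing notes, cutadapt 1.13, STAR, HTSeq 0.6.1p1 and DESeq2 were used with build mm10. The annotation, the use of strand and the handling of multimapping reads have no entry in the labels used here. Reads of overlapping genes may be exchanged or left uncounted. The labels name both Trizol and a column kit for RNA extraction.

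Low genes were removed with filterByExpr (minimum count 10), TMM set the library scale, and edgeR 4.0.16 (R 4.3.3) compared the genotypes with its quasi-likelihood F test and no other term. P-values were adjusted by Benjamini-Hochberg over 14687 genes and called under 0.05. Intervals of 95% use the t distribution with the degrees of freedom of the fit. Alternatives were DESeq2 1.42.0, limma 3.58.1 voom, 3 other scalings, 2 other filters, robust estimation, a replicate block and leaving out libraries. The fit was also run on counts simulated from its own estimates, so that run does not test whether its model suits these pools. Positions and exon lengths are from GENCODE M21 (GRCm38). No usable promoter window was at hand for C1qa, Spi1 and Tyrobp, and Csf1r was also left out of the promoter search. The shares of windows with a match therefore describe the 6 members searched and not the whole set. Of the list entries, 295 matched by symbol, 8 by an older symbol from RefSeq and 3 were not found.

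The labels do not say whether pools came from separate litters, so p-values measure only the spread between pools. Replicates differed by more than sampling noise (chi-square per degree of freedom 3.58 to 13.4). Members and lists were chosen with earlier results of these data known. Named genes were the members, Csf1, Il34, Cx3cl1, Ptprc, up to 4 called genes per list and direction with the smallest adjusted p, the 2 most abundant genes of lists without a call, and the 8 genes most alike. Further list genes, among them Adgre1, Cd68, Ngp and Ccr2, are examples named after their values were seen. Single values of a few list genes are not reported here. Lists of erythroid and hepatocyte markers were also counted. Of 19 tested erythroid genes, 11 were called higher (5 without control pool 1 or control pool 3) and 0 lower, and of 9 hepatocyte genes 0 higher and 6 lower.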

Additional observations from a re-analysis of the deposited data

How the results depend on the processing

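No macrophage marker was called under 15 of the 16 alternatives. Under the replicate block, which pairs pools by number, 1 was called higher, Tyrobp (edgeR adjusted p = 0.0421). The labels do not say that equal numbers pair the pools. Deviations of same-numbered pools correlated at 0.138, 0.101 and -0.0497, and those of unlike-numbered pools at -0.234 to 0.159. With 3 pools per group these values cannot decide whether pools were paired. Over all alternatives the log2 fold change of Tyrobp ran from 0.31 to 0.62 (adjusted p 0.0421 to 0.342), that of Aif1 from 0.28 to 0.47 and that of Spi1 from 0.15 to 0.45. Mrc1 ran from -0.24 to -0.07. The sign changed under at least 1 alternative for Csf1r, C1qa, C1qb, C1qc, Cx3cr1 and Fcer1g, whose values stayed between -0.17 and 0.31. The median over the members ran from -0.03 to 0.15. With 1 library left out, calls over all genes numbered 629 to 1421, against 1167 with all, those higher 282 to 696 and those lower 343 to 725. They fell below 1167 by over 1.5 times without control pool 1 (629), mutant pool 1 (767), mutant pool 2 (648) or mutant pool 3 (776). Genes of the other lists called higher numbered 19 (without control pool 3) to 31, against 32. Without both control pool 3 and mutant pool 1, which almost lacked Xist, the counts were 665, 315, 350 and 18, and Tyrobp stood at 0.31 (adjusted p = 0.342). That leaves 2 pools per group. Total-count scaling moved the median of all genes to -0.026 and gave 463 higher and 717 lower calls. Under the replicate block all-gene calls numbered 1138 and leukocyte genes called higher 6, against 0, and Cfi was called lower (adjusted p = 0.0155). At 56 to 113 reads per library, Aif1 and Spi1 have intervals that allow differences up to 1.67 and 1.62 times the control level.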
